A study of Mus musculus with 10 samples.

Results

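A set of 9 genes of the cardiac Z-disc and its repair was followed through the hearts of 10 mice that lack muscle LIM protein: the filamins Flna and Flnc, the Xin repeat genes Xirp1 and Xirp2, and Nrap, Klhl41, Synpo2l, Myot and Nexn. They were chosen by symbol, with earlier results of these data known. These 9 were among 57185 genes with counts, and all 9 were among the 13453 genes that passed the filter on low counts. RNA was sequenced from the apical part of the ventricles, with 1 library per mouse and 5 male mice in each of 2 groups. Muscle LIM protein (MLP) is the product of Csrp3, and its loss gives a dilated cardiomyopathy.

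The first group, called MLPKO, carried the MLP knockout and floxed alleles of RAD, written RAD fl/fl. RAD is a small GTPase encoded by Rrad that restrains the L-type calcium channel. The second group, called cRADΔ/Δ-MLPKO and labelled MLPKO-cRADKO, carried the same alleles together with the MYH6-MerCreMer transgene, a tamoxifen-inducible recombinase driven by a cardiomyocyte promoter. All mice of both groups received 1 intraperitoneal dose of tamoxifen, 100 mg per kg, at 10 weeks of age. The labels give the time of collection as 1 month after tamoxifen and the age as 16 weeks, and these do not add up exactly. Only the second group had both the recombinase and tamoxifen, so that loss of RAD and activity of the recombinase cannot be told apart by these groups.

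Filamins cross-link actin filaments and tie them to membrane proteins and to the Z-disc, the plate that joins neighbouring sarcomeres. Filamin C, from Flnc, is the filamin of striated muscle, whereas filamin A, from Flna, is made by most cell types. When a Z-disc is damaged by load, filamin C and the Xin proteins gather at the lesion within minutes, and damaged filamin is cleared by a chaperone complex built around BAG3. The Xin proteins, from Xirp1 and Xirp2, bind actin through short repeats and are also found at the intercalated disc, where cardiomyocytes are joined end to end.

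Xirp2, Nrap and the other striated muscle genes were lower on average in cRADΔ/Δ-MLPKO, and Flna was not. By the quasi-likelihood test of edgeR, 2 of the 9 genes, Xirp2 and Nrap, were lower in cRADΔ/Δ-MLPKO at an adjusted p under 0.05, and 0 were higher, also without adjustment. Over all genes tested, 1.80% were called lower and 2.74% were called in either direction. DESeq2 called 3 of the 9 lower, adding Klhl41, where it called 6.09% of its genes lower, and limma-voom called 2, where it called 1.61% of all genes lower. At an unadjusted edgeR p under 0.05, 7 of the 9 were lower, against 11.5% of all genes. In 2 of the 9, again Xirp2 and Nrap, every cRADΔ/Δ-MLPKO mouse lay below every MLPKO mouse, which was the case in 3.98% of all genes. The median log2 fold change was −1.02 over the 9 genes and 0.01 over all genes. With 1 mouse left out, edgeR called between 0 and 6 of the 9, the most without MLPKO mouse 4, where 3.95% of all genes were called lower. The fits that called 0 of the 9 called 47 to 142 genes in all.

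The libraries held between 33457406 and 49965101 counts, with a median of 43738141. Values are given as CPM, counts per 1000000 counts of the TMM-scaled library, and a log2 fold change is cRADΔ/Δ-MLPKO against MLPKO. MLPKO mouse 2 stood apart from its group. It was the highest MLPKO mouse in all 9 genes, and its sum over the red blood cell markers was 2798 CPM, the highest of the 10 mice. Results are therefore also given without it, where 3 of the 9 genes were called lower (Xirp2, Nrap and Klhl41) and 1.67% of all genes were. MLPKO mouse 4 was the lowest of its group in all 8 striated muscle genes (the 9 without Flna). Rrad was between 139.7 and 282 CPM in MLPKO and between 135 and 202 CPM in cRADΔ/Δ-MLPKO (log2 fold change −0.38, edgeR adjusted p = 0.290), so its count over the whole gene and all cells did not separate the groups. Csrp3 was counted in every mouse, at 1009 to 3261 CPM in MLPKO and 691 to 1177 CPM in cRADΔ/Δ-MLPKO (log2 fold change −1.08, edgeR adjusted p = 0.0667). This too is a count over the whole gene, and it does not show which exons were read.

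**Figure D1:**
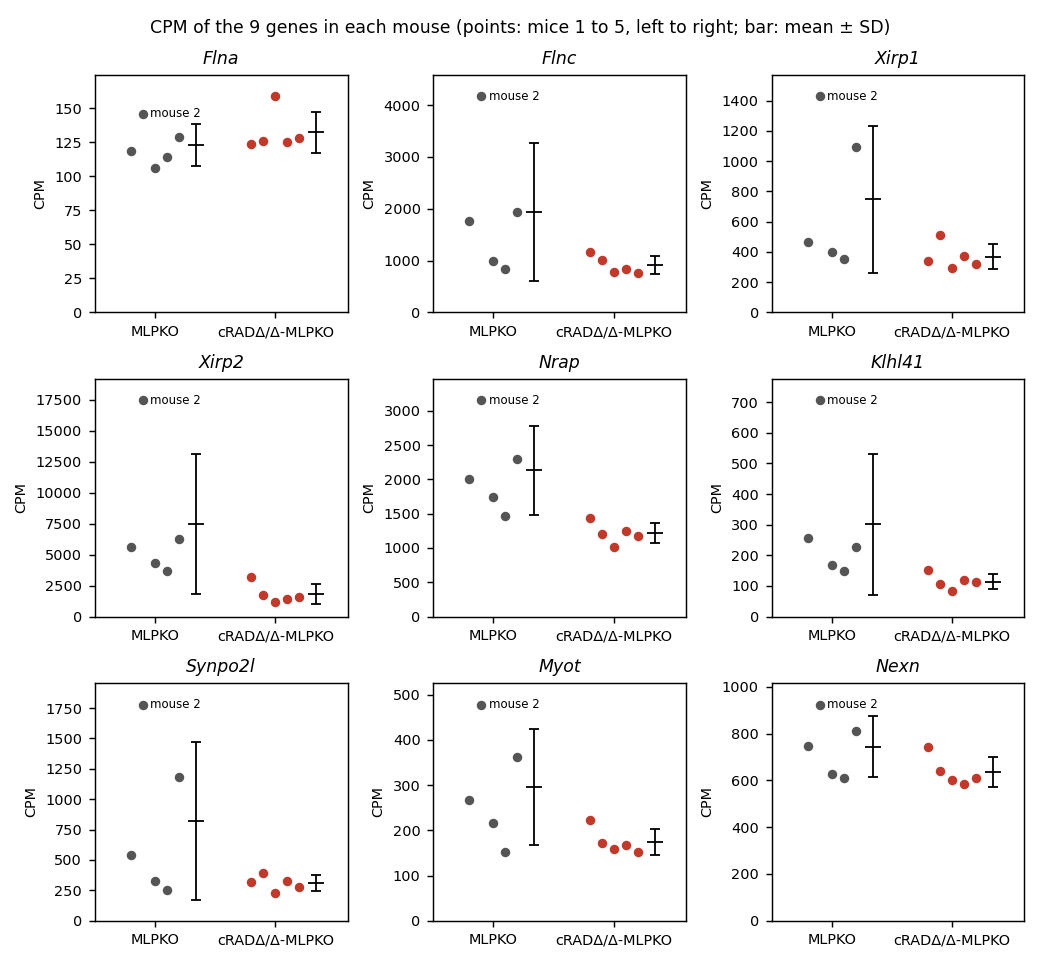
CPM of each of the 9 genes (vertical axes, from 0, a separate scale for each gene) in the 5 MLPKO mice (grey) and the 5 cRADΔ/Δ-MLPKO mice (red), with the mean and SD of each group beside the points. MLPKO mouse 2 is marked and is the highest of its group in all 9 panels, and only in the Xirp2 and Nrap panels do all red points lie below all grey ones.

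Stretches of DNA just before a transcription start are shown for Xirp2, Klhl41 and Synpo2l because these 3 were the genes of the 9 whose promoter window held a MEF2 site, the sequence bound by the MEF2 factors of muscle. The windows are RefSeq promoters (250 bases before to 50 bases after a start, table on GRCm38.p6), and each stretch was matched to a single place in GRCm39, with bases in an exon of the gene left out. They are written 5′ to 3′ along the gene, with the MEF2 site in capitals. Xirp2 is at chr2:67276196-67276300 on the plus strand, with a site that begins 74 bases before the start. This start lies inside the span of the gene given below, downstream of the start of its longest annotated extent, so the stretch precedes an internal start. The stretches of Klhl41 and Synpo2l each abut the start of their gene. Klhl41 is at chr2:69500314-69500461 on the plus strand, with a site 63 bases before the start. Synpo2l is at chr14:20718423-20718572 on the minus strand, with a site 109 bases before the start.
Xirp2: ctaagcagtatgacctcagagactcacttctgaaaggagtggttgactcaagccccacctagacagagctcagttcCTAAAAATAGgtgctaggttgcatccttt
Klhl41: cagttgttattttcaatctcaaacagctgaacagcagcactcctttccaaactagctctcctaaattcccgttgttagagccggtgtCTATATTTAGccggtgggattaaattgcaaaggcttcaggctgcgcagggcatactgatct
Synpo2l: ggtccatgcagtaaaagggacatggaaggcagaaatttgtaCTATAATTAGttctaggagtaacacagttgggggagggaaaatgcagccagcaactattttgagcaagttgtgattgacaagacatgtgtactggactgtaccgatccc

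Of the 9 genes, 6 had an entry in the promoter table, and Xirp1, Myot and Nexn had none. A MEF2 site on either strand was present for 3 of the 6 genes (Xirp2, Klhl41 and Synpo2l) and in 3.19% of all 32851 promoter windows of the same 300 bases. The CArG box, the sequence bound by serum response factor, was in 0 of the 6 genes and in 1.63% of all windows. The M-CAT motif CATTCC, bound by TEAD factors, was present for 2 of the 6, Flnc and Flna, and in 14.7% of all windows. Some genes had windows at several starts, and a motif was counted for a gene if any of its windows held it. The shares over all windows count single windows, so they are not directly comparable with these counts of genes. These matches describe letters only, and no binding was measured.

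Flnc (chromosome 6, 29433072 to 29461887, plus strand, GRCm39) encodes filamin C. It had 1754, 4173, 995, 836 and 1931 CPM in MLPKO mice 1 to 5 and 1162, 1015, 778, 841 and 761 CPM in cRADΔ/Δ-MLPKO mice 1 to 5. MLPKO ranged widely and 2 of the 5 cRADΔ/Δ-MLPKO mice lay below the lowest MLPKO mouse, so the groups overlapped. Means were 1938 ± 1335 (SD, n = 5) in MLPKO against 911 ± 173 (SD, n = 5) in cRADΔ/Δ-MLPKO, for a log2 fold change of −1.09 (SE, the standard error, 0.37, edgeR adjusted p = 0.114, DESeq2 adjusted p = 0.114). Without MLPKO mouse 2 it was −0.60 (edgeR adjusted p = 0.170), and without MLPKO mouse 4 the adjusted p was 0.0440. In the full comparison the unadjusted edgeR p of Flnc was 0.0118, and Flnc missed the threshold after adjustment over all genes tested.

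Flna (chromosome X, 73265347 to 73293456, minus strand) encodes filamin A. Its CPM was 119, 146, 106, 114 and 129 in MLPKO and 124, 126, 159, 125 and 128 in cRADΔ/Δ-MLPKO. The groups overlapped, but cRADΔ/Δ-MLPKO mouse 3 lay above the highest MLPKO mouse. MLPKO mice 1, 3 and 4 lay below every cRADΔ/Δ-MLPKO mouse. Means were 123 ± 15.4 (SD, n = 5) in MLPKO against 133 ± 15.0 (SD, n = 5) in cRADΔ/Δ-MLPKO, a log2 fold change of 0.11 (SE 0.10, edgeR adjusted p = 0.552). Flna was the gene of the 9 with the smallest coefficient of variation in MLPKO, 12.5%, against 68.9% for Flnc. Flna was called in 1 of 20 alternatives, higher under the scaling to cardiomyocyte genes described below.

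Ratios of 2 related genes within a library do not depend on how libraries are scaled. There were 14.7, 28.5, 9.35, 7.37 and 15.0 counts of Flnc per count of Flna in MLPKO, and 9.34, 8.05, 4.88, 6.74 and 5.93 in cRADΔ/Δ-MLPKO. On the log2 scale this ratio was 3.74 ± 0.75 (SD, n = 5) and 2.77 ± 0.37 (SD, n = 5), a difference of −0.98 (two-sided exact permutation test, p = 0.0317, 0.0741 after Benjamini-Hochberg adjustment over 7 ratios).

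Xirp2 (chromosome 2, 67004178 to 67356962, plus strand) encodes the larger Xin repeat protein, also named xeplin or myomaxin. It had 5626, 17432, 4281, 3701 and 6225 CPM in MLPKO and 3175, 1739, 1172, 1437 and 1541 CPM in cRADΔ/Δ-MLPKO. All 5 cRADΔ/Δ-MLPKO mice lay below all 5 MLPKO mice, with cRADΔ/Δ-MLPKO mouse 1 closest to the MLPKO range. Means were 7453 ± 5669.6 (SD, n = 5) in MLPKO against 1813 ± 789 (SD, n = 5) in cRADΔ/Δ-MLPKO, which is 24.3% of the MLPKO mean. Xirp2 fell by 2.04 on the log2 scale (SE 0.43, edgeR adjusted p = 0.0324, DESeq2 adjusted p = 0.00783). Without MLPKO mouse 2 it fell by 1.45 (edgeR adjusted p = 0.0212), and the groups still did not overlap. When single mice were left out, the adjusted p was over 0.05 in 6 of the 10 fits, those without MLPKO mouse 1 or 5 or cRADΔ/Δ-MLPKO mouse 2, 3, 4 or 5, where it lay between 0.0586 and 0.0871. It was also over 0.05 with robust dispersions, at 0.0589.

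Xirp1 (chromosome 9, 119842821 to 119852664, minus strand) encodes Xin, the partner of filamin C at sites of myofibril damage. Its CPM was 465, 1429.8, 398, 353 and 1091 in MLPKO and 339, 509, 295, 376 and 321 in cRADΔ/Δ-MLPKO. MLPKO mice 2 and 5 stood above all other mice, whereas the 3 remaining MLPKO mice lay within the cRADΔ/Δ-MLPKO range. Means were 747 ± 485 (SD, n = 5) and 368 ± 84.2 (SD, n = 5), a log2 fold change of −1.02 (SE 0.37, edgeR adjusted p = 0.134), and −0.65 without MLPKO mouse 2 (edgeR adjusted p = 0.246). Xirp1 was called in 0 of 20 alternatives, DESeq2 included, although its unadjusted edgeR p was 0.0170.

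The Xirp1 and Xirp2 counts were also compared within each library. The counts of Xirp1 per count of Xirp2 were 0.0826, 0.0820, 0.0929, 0.0954 and 0.175 in MLPKO and 0.107, 0.293, 0.252, 0.262 and 0.209 in cRADΔ/Δ-MLPKO. The log2 ratio was −3.31 ± 0.46 (SD, n = 5) and −2.24 ± 0.58 (SD, n = 5), a difference of 1.07 (exact permutation test, p = 0.0159, adjusted p = 0.0556). MLPKO mouse 5 and cRADΔ/Δ-MLPKO mouse 1 were the mice by which the groups overlapped. Of the summed counts of the 8 striated muscle genes, Xirp2 made up 44.0% to 58.0% in MLPKO and 27.1% to 42.1% in cRADΔ/Δ-MLPKO, without overlap. Xirp2 is part of this sum and had the largest fall of the 8, so the share restates that fall and was not tested. These 8 genes together took 0.752% to 3.01% of a library in MLPKO (median 1.17%) and 0.433% to 0.754% in cRADΔ/Δ-MLPKO (median 0.510%).

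Nrap (chromosome 19, 56308454 to 56378631, minus strand) encodes nebulin-related anchoring protein, an actin-binding LIM protein of the intercalated disc and of assembling myofibrils. It had 2006, 3152, 1737, 1463 and 2304 CPM in MLPKO and 1431, 1207, 1016, 1242 and 1181 CPM in cRADΔ/Δ-MLPKO. All cRADΔ/Δ-MLPKO mice lay below all MLPKO mice, but MLPKO mouse 4 and cRADΔ/Δ-MLPKO mouse 1 were close. Means were 2132 ± 650.1 (SD, n = 5) and 1215 ± 148 (SD, n = 5), or 57.0% of the MLPKO mean, and Nrap fell by 0.81 on the log2 scale (SE 0.18, edgeR adjusted p = 0.0377, DESeq2 adjusted p = 0.000263). Without MLPKO mouse 2 it fell by 0.63 (edgeR adjusted p = 0.0319). The 6 mice whose removal ended the call of Xirp2 also ended that of Nrap, with an adjusted p between 0.0734 and 0.0948. Exons of Nrap overlap those of Habp2 on the opposite strand. Habp2 had 92 to 242 counts per library, against 37196 to 104464 for Nrap, and without a stated strand setting reads from such a stretch cannot be told apart.

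Nebl, the cardiac relative of Nrap in the nebulin family, had 382 ± 40.1 CPM (SD, n = 5) in MLPKO against 321 ± 61.3 CPM (SD, n = 5) in cRADΔ/Δ-MLPKO (log2 fold change −0.25, edgeR adjusted p = 0.287). The counts of Nrap per count of Nebl were between 3.75 and 8.28 in MLPKO and between 3.04 and 4.49 in cRADΔ/Δ-MLPKO, a log2 difference of −0.50 (exact permutation test, p = 0.0476, adjusted p = 0.0833).

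Klhl41 (chromosome 2, 69500462 to 69515137, plus strand) encodes a kelch protein that stabilizes nebulin and other thin filament proteins and is a nemaline myopathy gene. Its CPM was 258, 706, 167, 148 and 227 in MLPKO and 151, 105, 82.6, 118 and 112 in cRADΔ/Δ-MLPKO. MLPKO mouse 2 was far above the rest, and 4 of the 5 cRADΔ/Δ-MLPKO mice lay below the lowest MLPKO mouse. Means were 301 ± 230.5 (SD, n = 5) and 114 ± 24.6 (SD, n = 5), a log2 fold change of −1.40 (SE 0.38, edgeR adjusted p = 0.0667, DESeq2 adjusted p = 0.0214). Without MLPKO mouse 2 the log2 fold change was −0.81 and passed the threshold (edgeR adjusted p = 0.0417). Its relative Klhl40 had 75.5 ± 35.2 CPM (SD, n = 5) and 42.9 ± 7.79 CPM (SD, n = 5), a log2 fold change of −0.81 (edgeR adjusted p = 0.0996). The ratio of Klhl41 to Klhl40 lay between 3.05 and 5.31 in MLPKO and between 2.17 and 3.16 in cRADΔ/Δ-MLPKO, a log2 difference of −0.46 (exact permutation test, p = 0.0159, adjusted p = 0.0556).

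Synpo2l (chromosome 14, 20707961 to 20718422, minus strand) encodes the cardiac relative of myopodin, an actin-bundling protein of the Z-disc. It had 545, 1779, 324, 256 and 1183 CPM in MLPKO and 318, 396, 229, 331 and 275 CPM in cRADΔ/Δ-MLPKO. As for Xirp1, MLPKO mice 2 and 5 were far above the others, and MLPKO mice 3 and 4 lay within the cRADΔ/Δ-MLPKO range. Means were 817 ± 650.5 (SD, n = 5) and 309.9 ± 62.7 (SD, n = 5), a log2 fold change of −1.40 (SE 0.46, edgeR adjusted p = 0.109, DESeq2 adjusted p = 0.0684), and −0.90 without MLPKO mouse 2 (edgeR adjusted p = 0.189). Synpo2, which encodes myopodin, had 430.2 ± 291 CPM (SD, n = 5) and 253 ± 28.4 CPM (SD, n = 5), a log2 fold change of −0.77 (edgeR adjusted p = 0.213). The ratio of Synpo2l to Synpo2 differed by −0.48 on the log2 scale (exact permutation test, p = 0.0635, adjusted p = 0.0889).

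Myot (chromosome 18, 44467097 to 44490585, plus strand) encodes myotilin, a Z-disc protein that binds filamin C and alpha-actinin. Its CPM was 266, 478, 217, 151 and 362 in MLPKO and 223, 171, 158, 167 and 151 in cRADΔ/Δ-MLPKO. No cRADΔ/Δ-MLPKO mouse lay below the lowest MLPKO mouse, so the groups overlapped over the whole lower range. Means were 295 ± 128 (SD, n = 5) and 174 ± 28.5 (SD, n = 5), a log2 fold change of −0.76 (SE 0.25, edgeR adjusted p = 0.112), and −0.52 without MLPKO mouse 2 (edgeR adjusted p = 0.178). Its relative Mypn, the gene of myopalladin, had a log2 fold change of −0.51 (edgeR adjusted p = 0.118), and the ratio of Myot to Mypn differed by −0.20 on the log2 scale (exact permutation test, p = 0.183, adjusted p = 0.213). Without MLPKO mouse 4, the edgeR adjusted p was 0.0391 for Synpo2l and 0.0288 for Myot.

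Nexn (chromosome 3, 151940103 to 151972066, minus strand) encodes nexilin, an actin-binding protein of the Z-disc and of the junction between the T-tubule and the sarcoplasmic reticulum. Its CPM was 745, 924, 626, 611 and 813 in MLPKO and 742, 642, 599.6, 585 and 609 in cRADΔ/Δ-MLPKO. The groups overlapped, and 3 of the 5 cRADΔ/Δ-MLPKO mice lay just below the lowest MLPKO mouse. Means were 744 ± 131 (SD, n = 5) and 636 ± 63.0 (SD, n = 5), which is 85.5% of the MLPKO mean, with a log2 fold change of −0.23 (SE 0.12, edgeR adjusted p = 0.285). Exons of Nexn overlap those of Fubp1 on the opposite strand, which had 1225 to 2299 counts per library against 21950 to 36862 for Nexn.

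**Figure D2:**
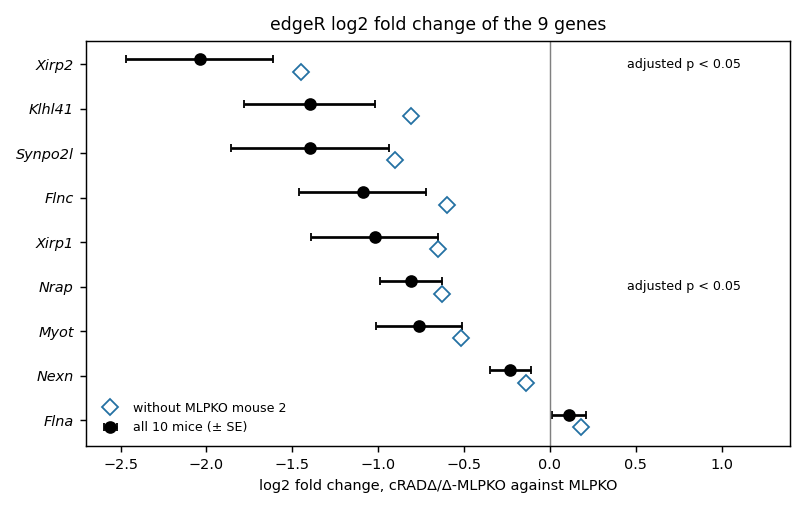
The log2 fold change of cRADΔ/Δ-MLPKO against MLPKO (horizontal axis) for the 9 genes, from edgeR over all 10 mice (black, with its standard error) and without MLPKO mouse 2 (open diamonds). Leaving out that mouse moved the 8 striated muscle genes toward 0, Xirp2 from −2.04 to −1.45 and Klhl41 from −1.40 to −0.81, and none of the 9 changed sign.

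The ratios of related genes did not pass the threshold after adjustment. Of the 7 ratios, 4 had an unadjusted exact p under 0.05 and 0 had an adjusted p under 0.05, where the smallest p that 5 mice against 5 allow is 0.00794. Without MLPKO mouse 4, 4 ratios passed: Flnc to Flna (adjusted p = 0.0278), Klhl41 to Klhl40 (adjusted p = 0.0417), Synpo2l to Synpo2 (adjusted p = 0.0417) and Nrap to Nebl (adjusted p = 0.0278), by exact permutation tests. That mouse was the lowest MLPKO mouse in all 8 striated muscle genes, and leaving out any other single mouse passed no ratio. Without MLPKO mouse 2, none of the 7 did, and the adjusted p was 0.130 for each of Flnc to Flna, Xirp1 to Xirp2 and Klhl41 to Klhl40.

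**Figure D3:**
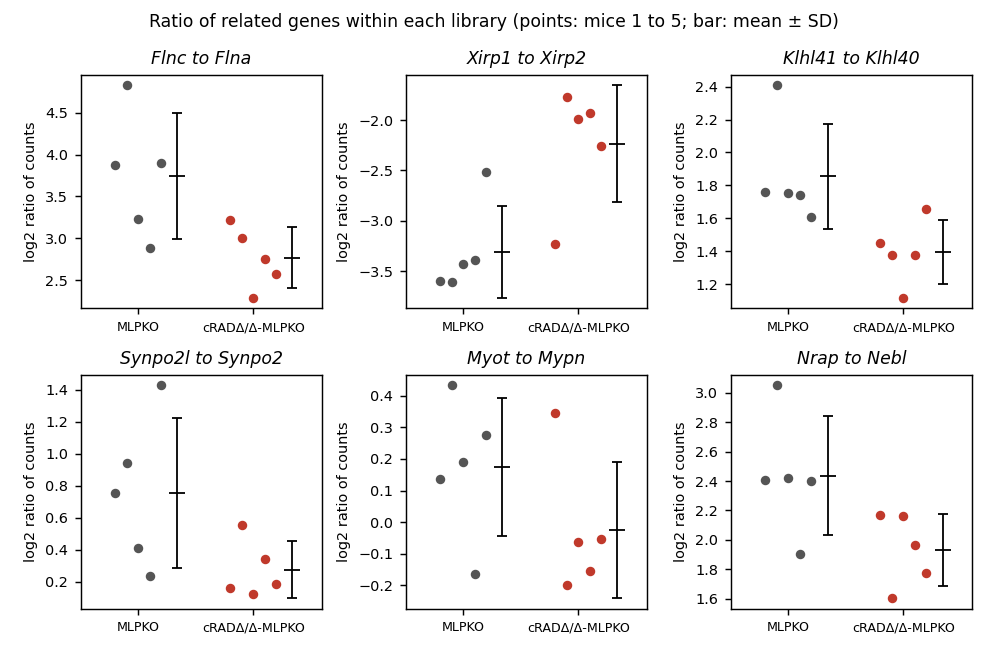
The log2 ratio of the counts of 2 related genes in the same library (vertical axes, scales differ between panels and do not start at 0) for each MLPKO mouse (grey) and cRADΔ/Δ-MLPKO mouse (red), with the mean and SD of each group. The groups overlap in all 6 panels, for Xirp1 to Xirp2 through MLPKO mouse 5 and cRADΔ/Δ-MLPKO mouse 1.

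Levels were compared between genes per kilobase of merged exons. In MLPKO the order of the medians was Xirp2 with 389 CPM per kb, Nrap with 353, Flnc with 182, Synpo2l with 94.4, Nexn with 89.7, Xirp1 with 74.6, Klhl41 with 73.5, Myot with 38.2 and Flna with 10.7 CPM per kb. The ranges of neighbours in this order overlapped, with the exception of Myot and Flna. In cRADΔ/Δ-MLPKO the median was highest for Nrap, 212 CPM per kb, followed by Xirp2 with 107, Flnc with 87.1, Nexn with 73.4, Synpo2l with 55.1, Xirp1 with 54.5, Klhl41 with 36.3, Myot with 23.9 and Flna with 11.2 CPM per kb. Here Nexn and Synpo2l, and Myot and Flna, were the neighbours whose ranges did not overlap. Nrap exceeded Xirp2 per kilobase in 5 of 5 cRADΔ/Δ-MLPKO mice, whereas Xirp2 exceeded Nrap in 3 of 5 MLPKO mice. In cRADΔ/Δ-MLPKO, Synpo2l exceeded Xirp1 in 1 of 5 mice, so the order of these medians did not hold mouse by mouse.

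The spread between mice was itself unequal. The coefficient of variation of CPM in MLPKO was 79.6% for Synpo2l, 76.5% for Klhl41, 76.1% for Xirp2, 68.9% for Flnc and 64.9% for Xirp1, and 17.6% for Nexn. In cRADΔ/Δ-MLPKO it was 43.5% for Xirp2 and between 9.92% and 22.9% for the other 8. Over its own group, MLPKO mouse 2 was 4.10 times the median of the other 4 MLPKO mice for Synpo2l, 3.58 times for Klhl41, 3.52 times for Xirp2 and 1.25 times for Flna. Within cRADΔ/Δ-MLPKO, mouse 1 was the highest in 6 of the 8 striated muscle genes and mouse 3 the lowest in 5.

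The genes whose log2 CPM ran most closely with Xirp2 over the 10 mice, of 13444 compared, were Cystm1, Hspb7 and Setd7, each with a Spearman rho of 1.00. Pearson's r was 0.99 for Cystm1, 0.99 for Hspb7 and 0.98 for Setd7, and 0.98, 0.96 and 0.94 after the group means were subtracted. Without the 2 mice farthest from the median of Xirp2, r was 0.99, 0.98 and 0.96. All 3 were lower in cRADΔ/Δ-MLPKO, with log2 fold changes of −0.62 for Cystm1 (edgeR adjusted p = 0.0401), −0.85 for Hspb7 (edgeR adjusted p = 0.0328) and −0.60 for Setd7 (edgeR adjusted p = 0.0334). For Flnc the closest were Lrrfip1, Tom1l2 and Cd99l2, with a rho of 0.99, 0.98 and 0.98 and an r of 0.94, 0.95 and 0.90 without the 2 farthest mice. For Flna they were Adam12, Eno1b and Gnb1, with a rho of 0.94, 0.93 and 0.90. These are the highest values among all genes, over mice of 2 groups, and are given as a description with no p.

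Other genes of the Z-disc, of filamin clearance and of the junctions were counted from lists. Over all genes, edgeR called 1.80% lower, and DESeq2 called 6.09% of its genes lower. At an unadjusted edgeR p under 0.05, 11.5% of all genes were lower, and 3.98% were lower without overlap between the groups. Of the Z-disc scaffold list (alpha-actinin and its PDZ-LIM, myozenin, palladin and FHL partners), 23 of 24 genes were tested, and 2 were called lower and 0 higher by edgeR, against 11 lower and 0 higher by DESeq2. The median log2 fold change was −0.43, and −0.32 without MLPKO mouse 2. Des, the gene of desmin, which links Z-discs sideways, went from 3533 ± 924 CPM (SD, n = 5) to 2057 ± 188 CPM (SD, n = 5), a log2 fold change of −0.78 (edgeR adjusted p = 0.0247). Ldb3, the gene of the alpha-actinin partner cypher, went from 1655 ± 256 CPM (SD, n = 5) to 1126 ± 146 CPM (SD, n = 5), a log2 fold change of −0.55 (edgeR adjusted p = 0.0334). Neither overlapped between the groups, and each kept its call in 4 of the 10 fits that left out 1 mouse. Actn2, the alpha-actinin of the cardiac Z-disc, had a log2 fold change of −0.43 (edgeR adjusted p = 0.0544). Larger differences that missed the threshold, named after their values were seen, were those of Myoz1 at −2.18 (edgeR adjusted p = 0.0910) and Fhl1 at −2.09 (edgeR adjusted p = 0.0609).

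Of the 12 genes on the filamin clearance list, the BAG3 chaperone complex and its autophagy partners, 3 were called lower and 0 higher, and DESeq2 called 4 lower and 0 higher. Hspb8, the small heat shock protein that works with BAG3, was 761, 875, 768, 705 and 776 CPM in MLPKO and 537, 484, 548, 467 and 523 CPM in cRADΔ/Δ-MLPKO. Its groups lay well apart, with a log2 fold change of −0.60 (edgeR adjusted p = 0.00577), and its call held in 10 of 10 fits with 1 mouse left out. Hspb7, a filamin C-binding small heat shock protein of the heart, went from 5729.6 ± 1679.7 CPM (SD, n = 5) to 3169.8 ± 494 CPM (SD, n = 5), a log2 fold change of −0.85 (edgeR adjusted p = 0.0328), and was called in 4 of those fits. Sqstm1, the autophagy receptor p62, had a log2 fold change of −0.27 (edgeR adjusted p = 0.0427) and was called in 2 of them. Bag3 itself had a log2 fold change of −0.41 (edgeR adjusted p = 0.0692). The median of the list was −0.24, and −0.28 without MLPKO mouse 2.

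On the list of kelch and nebulin family genes, 0 of 12 were called by edgeR in either direction, where 4 had an unadjusted p under 0.05 and a lower level, and DESeq2 called 2 lower. The most abundant were Lmod2, which encodes an actin filament elongator (log2 fold change −0.38, edgeR adjusted p = 0.0728), and Cfl2, the gene of muscle cofilin (log2 fold change −0.44, edgeR adjusted p = 0.0624). The median of the list was −0.22 with and without MLPKO mouse 2.

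The list of filamin partners at the membrane holds integrins, sarcoglycans and costamere proteins, and also the ankyrin repeat genes Ankrd1 and Ankrd2. Of its 21 genes, 19 were tested, and 3 were called lower (Vcl, Ankrd1 and Ankrd2) and 0 higher. DESeq2 called 6 lower and 1 higher. Vcl, the gene of vinculin at costameres and intercalated discs, went from 114 ± 11.3 CPM (SD, n = 5) to 83.6 ± 6.97 CPM (SD, n = 5), a log2 fold change of −0.45 (edgeR adjusted p = 0.0216). Ankrd1, a stretch-responsive ankyrin repeat gene of the titin spring region, had a log2 fold change of −1.27 (edgeR adjusted p = 0.0463), with an adjusted p of 0.0598 without MLPKO mouse 2. Its relative Ankrd2 was at 6.68, 187, 9.61, 4.11 and 3.18 CPM in MLPKO and 1.86, 0.261, 0.819, 0.690 and 0.136 CPM in cRADΔ/Δ-MLPKO. The groups did not overlap, but MLPKO mouse 2 set the size of the log2 fold change, −5.87 with it (edgeR adjusted p = 0.0475) and −3.02 without it (edgeR adjusted p = 0.0251). Of the 10 fits with 1 mouse left out, Ankrd2 was called in 2, with an adjusted p of up to 0.115, Ankrd1 in 3 and Vcl in 6. By limma-voom the adjusted p of Ankrd2 was 0.257 and that of Ankrd1 was 0.0507. DESeq2 gave no adjusted p for Ankrd2, so this gene is not among its calls. The median of the list was −0.15, and −0.11 without MLPKO mouse 2.

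Of the 12 adherens junction and desmosome genes, 4 were called lower and 0 higher by edgeR, and 5 lower and 0 higher by DESeq2. Dsp, the gene of desmoplakin, went from 2021 ± 157 CPM (SD, n = 5) to 1472 ± 90.0 CPM (SD, n = 5), a log2 fold change of −0.46 (edgeR adjusted p = 0.0158). Jup, the gene of plakoglobin, went from 361 ± 18.7 CPM (SD, n = 5) to 282 ± 8.50 CPM (SD, n = 5), a log2 fold change of −0.36 (edgeR adjusted p = 0.0151). The calls of both held in 10 of 10 fits with 1 mouse left out. Cdh2, the gene of N-cadherin, had a log2 fold change of −0.41 (edgeR adjusted p = 0.0239), and Pkp2, the gene of plakophilin 2, had −0.64 (edgeR adjusted p = 0.0421), with calls in 6 and 3 of those fits. These 4 genes did not overlap between the groups. The median of the list was −0.25, and −0.26 without MLPKO mouse 2.

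**Figure D4:**
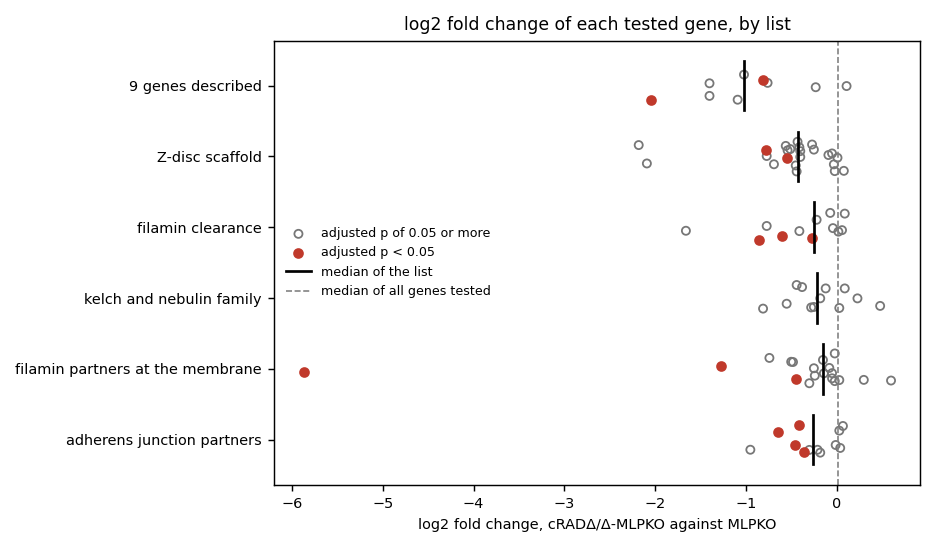
The log2 fold change of cRADΔ/Δ-MLPKO against MLPKO (horizontal axis) of each tested gene, for the 9 genes described and 5 lists of related genes (rows), with genes at an edgeR adjusted p under 0.05 filled in red, the median of each list as a black line and the median of all genes as a dashed line. The list medians run from −0.43 to −0.15 against −1.02 for the 9 genes and 0.01 for all genes, and every red point lies below 0.

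The tissue held the RNA of several cell types, and in bulk RNA fewer cells of a type and less RNA per cell cannot be told apart. The summed level of 9 cardiomyocyte markers, which include Myh6, Tnnt2 and Actc1, was 75941 to 86534 CPM in MLPKO and 58577 to 71988 CPM in cRADΔ/Δ-MLPKO, without overlap, and 1 of the 9 was called lower. The mean of the sum in cRADΔ/Δ-MLPKO was 82.3% of that in MLPKO. The same percentage was 24.3% for Xirp2, 37.8% for Klhl41, 37.9% for Synpo2l and 47.0% for Flnc. It was 49.3% for Xirp1, 57.0% for Nrap, 59.0% for Myot and 85.5% for Nexn. The 6 endothelial markers summed to 762 to 887 CPM in MLPKO and 898 to 1033 CPM in cRADΔ/Δ-MLPKO, also without overlap, although edgeR called 0 of the 6 (5 had an unadjusted p under 0.05 and DESeq2 called 2 higher). The part of cell type shares in the levels of the 9 genes was not tested by these sums. With the libraries scaled to the cardiomyocyte markers, the median log2 fold change of all genes was 0.30. On that scale 0.929% of all genes were called lower and 41.8% higher. Of the 9, 4 striated muscle genes were called lower: Xirp2 at −1.75 (edgeR adjusted p = 0.00804), Nrap at −0.52 (edgeR adjusted p = 0.0227), Klhl41 at −1.12 (edgeR adjusted p = 0.0256) and Synpo2l at −1.10 (edgeR adjusted p = 0.0496). Flna was called higher at 0.41 (edgeR adjusted p = 0.0192), beside the shift of 0.30 in all genes, and Nexn changed sign to 0.07 (edgeR adjusted p = 0.636). As levels per 1000 counts of the cardiomyocyte markers, the groups overlapped in all 8 striated muscle genes, for Xirp2 because the lowest MLPKO mouse was at 47.1 and the highest cRADΔ/Δ-MLPKO mouse at 48.6.

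The sums of the other marker lists overlapped between the groups. Of 12 skeletal muscle markers, 8 (Myh1, Myh2, Myh4, Mylpf, Tnni2, Tnnc2, Atp2a1 and Pvalb) were under 1 CPM in every mouse, and the sum was 73.0 to 151 CPM in MLPKO and 72.8 to 149 CPM in cRADΔ/Δ-MLPKO. The sum of the 6 atrial markers was 20.3 to 27.1 CPM and 24.1 to 53.4 CPM, with Sln, Bmp10 and Mybphl under 1 CPM in every mouse. The 7 smooth muscle markers, among them Synpo2, summed to 422 to 1206 CPM in MLPKO, with MLPKO mouse 2 the highest, and to 475 to 658 CPM in cRADΔ/Δ-MLPKO. Of these, edgeR called 1 higher, Acta2, and at an unadjusted p under 0.05 there were 2 higher and 2 lower. The sums were 1117 to 1700.2 CPM and 898 to 1653 CPM for fibroblast markers, 99.0 to 141 CPM and 122 to 224 CPM for macrophage markers, and 288 to 2798 CPM and 409 to 1978 CPM for red blood cell markers. All 7 macrophage markers were higher at an unadjusted edgeR p under 0.05, of which edgeR called 0 after adjustment and DESeq2 called 3. Over all genes, edgeR called 127 of 13453 higher and DESeq2 called 512 of 12917 higher. The share of all genes higher at an unadjusted p under 0.05 is not given, here or for the endothelial markers. The part of these markers in the levels of the 9 genes was not tested.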

How the data were processed

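RNA from the apical ventricles of 5 MLPKO and 5 cRADΔ/Δ-MLPKO mice was enriched for polyadenylated transcripts and sequenced as 1 library per mouse. Per the labels and the study's methods, STAR placed the reads on GRCm39 and featureCounts gave the raw counts that were deposited. Versions and the settings for strand, read pairs and shared reads are not given in the sources used here. Of 60676 genes listed, 3491 had no value and 57185 had counts, of which 56629 were named by GENCODE M39. Between 73.7% and 80.3% of the counts from 1 to 20 were even, and the cause was not tested.

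A gene was tested if it had over 10 counts in 6 or more of the 10 mice, and Gm and Rik genes were left out, as in the study's methods, which left 13453. The main test was edgeR's quasi-likelihood test (edgeR 4.0.16, R 4.3.3, TMM), with Benjamini-Hochberg adjustment over all of these genes. DESeq2 1.42.0, the tool of the study, and limma-voom (limma 3.58.1) were alternatives, beside other scalings and filters, a replicate block and leaving out each mouse. Log2 CPM used a prior count of 2. Ratios of related genes had 0.5 added to each count and were compared by two-sided exact permutation tests over mice (scipy 1.17.1, Python 3.11.15). The scripts were tested on simulated data. The 9 genes and the lists were chosen with earlier results of these data known. The genes named are the 9, those called in each list (at most 4 by size of log2 fold change, or the 2 most abundant where none was called), the related gene of each ratio, and the 3 genes most like Flnc, Xirp2 and Flna by Spearman rho. Mice were assigned to groups by their labels, and the p-values measure the spread between animals. The total count per mouse was 33457406 to 49965101, which leaves counting error small beside that spread for the 9 genes. Protein sequences were not used here, and 1 of the 7 ratios is not reported here.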

Additional observations from a re-analysis of the deposited data

Results flagged for a closer look

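In 8 of 32 groups of 5 mice looked at, over the 9 genes and the 7 ratios, a single mouse stood apart from the other 4 by more than 0.71 of the range of its group. For normally distributed values chance gives about 1 in 20 such groups. The CPM and ratios were not log-transformed here, and the genes are not independent of each other, so this share is only a rough guide. In MLPKO, mouse 2 stood above its group with 17432 CPM for Xirp2, with 706 CPM for Klhl41 and with 5.31 counts of Klhl41 per count of Klhl40. MLPKO mouse 5 stood above its group with 0.175 counts of Xirp1 per count of Xirp2. In cRADΔ/Δ-MLPKO, mouse 1 stood above its group with 3175 CPM for Xirp2, with 223 CPM for Myot and with 1.27 counts of Myot per count of Mypn. For Flna, cRADΔ/Δ-MLPKO mouse 3 stood above its group with 159 CPM. The values without MLPKO mouse 2 are given beside each gene above.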

How the results depend on the processing

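Of 180 log2 fold changes of the 9 genes under 20 alternatives, 157 kept their direction and side of the threshold, 13 lost a call and 9 gained one. Scaling to the cardiomyocyte markers reversed Nexn to 0.07, and among the related genes Sqstm1 to 0.02 and Nebl to 0.03. It also called 5750 genes (369 in the main comparison), 5 of the 9 genes (2) and 28 list genes (12), and moved the share of calls that were higher from 34.4% to 97.8%. The upper quartile gave 205 lower and 175 higher, where TMM gave 242 and 127. DESeq2 called 1298 genes and 29 list genes. The robust fit called 1 of the 9, Nrap, with an adjusted p of 0.0589 for Xirp2. With 1 mouse left out, edgeR called 47 to 826 genes, 0 to 6 of the 9 and 3 to 26 list genes, and 0 to 4 ratios passed. The calls were fewest without MLPKO mouse 1 or 5 or cRADΔ/Δ-MLPKO mouse 2, 3, 4 or 5 (0 of the 9 each) and most without MLPKO mouse 4 (6). The mouse numbers shared by the groups belong to different animals, and deviations of same-numbered mice correlated at −0.044 to 0.152. With the number as a replicate block, 281 genes, 2 of the 9 and 10 list genes were called, and the sign flips of the ratios passed 0, where their smallest p is 0.0625. The causes of these shifts were not tested.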
